A study of Mus musculus with 21 samples.

Results

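The regions described here are the 10 Mb windows of mouse chromosome 12 and the probes that lie in them. A probe was a member if it lies on chromosome 12 of build mm9 and carried the scanner's flag for a signal well above background on 4 or more of 21 arrays. This gave 1141 member probes with 913 gene names, of 1469 chromosome 12 probes on the array and 30435 kept probes on any chromosome. They fill 13 windows, of which 12 held at least 20 probes, among 250 autosomal windows of that size. The member probes run from base 3201014 to base 121184368. Windows and members were chosen from the tumours' own signals, so every tumour value below is a description. Where counts from a fit of tumour samples are given, they are descriptions too, and no support is drawn from them.

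RNA of livers and liver tumours from mice on a C57BL/6J background was hybridised to 1-colour arrays. The 7 DEN tumours, labelled hepatocellular carcinoma (HCC), came from 5 mice with intact Trp53 that were given N-nitrosodiethylamine (DEN, a liver carcinogen) at 10 µg per g body weight on day 15. The 6 KO tumours, with the combined label of hepatocellular and cholangiocellular carcinoma (HCC/CCC), came from 5 untreated Trp53 knockout mice. The controls were livers of 4 untreated Trp53 knockout mice (KO livers) and of 4 untreated wild-type mice (WT livers), so KO livers share the deletion with KO tumours. The sources used here give no age, no sex and no cell type for the Trp53 deletion. DEN tumours 4 and 5, DEN tumours 6 and 7, and KO tumours 5 and 6 each came from 1 mouse by the reading of the titles. Nothing else says that samples are separate animals, so p-values measure the spread between these samples.

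Neighbouring genes on a chromosome can shift together when DNA is gained or lost, when a domain is opened or silenced, or when cells with other active genes enter the tissue. Chromosome 12 of the mouse carries several gene groups that matter in liver. These include Apob, the protein core of liver-made lipoproteins, and the serpin cluster with alpha-1-antitrypsin. Further along lie the imprinted Dlk1-Dio3 domain, whose non-coding RNAs such as Meg3 are read from the maternal copy, and the immunoglobulin heavy chain locus of B and plasma cells. Arrays of RNA do not measure DNA copies.

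The sequences below show what single probes can and cannot tell apart, since a window median counts each probe once. All are read from the array files, 5′ to 3′, with mm9 positions. Capitals mark bases inside a 20-base run that also occurs, on either strand, in a probe of another gene name. The first Slc10a1 probe (chr12:82056539-82056598, minus strand, bases 1 to 30 shown) has a repeat-like stretch, whereas the second (chr12:82061470-82061529) has no shared run. The Gm4425 probe (chr12:22470042-22470101, minus strand, bases 31 to 60 shown) holds a CA repeat that it shares with 78 probes of other genes. The 3 alpha-1-antitrypsin probes of Serpina1a (chr12:105091819-105091878, bases 1 to 30), Serpina1c (chr12:105133165-105133224, bases 10 to 39) and Serpina1e (chr12:105185172-105185231, bases 11 to 40) are nearly alike. The Serpina4-ps1 pseudogene probe (chr12:105325060-105325119), the Meg3 probe (chr12:110809678-110809737), the Mirg probe (chr12:110987569-110987628) and the Igh-VJ558 probe (chr12:114498348-114498407) hold no shared run.
Slc10a1, first probe: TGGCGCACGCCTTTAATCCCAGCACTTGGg
Slc10a1, second probe: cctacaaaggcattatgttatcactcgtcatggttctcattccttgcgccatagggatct
Gm4425: TTAAACACACACACACACACACACACAGAG
Serpina1a: taaaATGTCATCCTTCCTTCTGAATTGGGT
Serpina1c: TAAGATGTCATCCTTCCTTCTGAATTGGGT
Serpina1e: taagaaGTCATCCTTCCTTCTGAATTGGGT
Serpina4-ps1: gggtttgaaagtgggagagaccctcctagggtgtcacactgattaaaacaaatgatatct
Meg3: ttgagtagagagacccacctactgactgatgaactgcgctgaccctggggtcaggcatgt
Mirg: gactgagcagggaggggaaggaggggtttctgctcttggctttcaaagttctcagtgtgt
Igh-VJ558: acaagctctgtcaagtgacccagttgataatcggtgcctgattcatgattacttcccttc

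Shared runs were common. They occurred in 157 of the 1141 members (13.8%), of which 54 lie among the 113 probes of the immunoglobulin heavy chain segment. In 5 members the run is a CA or GT repeat. These probes, of Plekhg3, Slc8a3, Cep170b, Wdr89 and Gm4425, share it with 76 to 80 probes each. For 7 members the gene of that symbol lies on another chromosome in the RefSeq table, among them Cd79a, Acaca and Rpl31, so such a probe may read a copy or a relative of its named gene.

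A shift is a probe's log2 processed signal, less its array's 75th percentile, minus its mean over the 8 livers. For a liver the mean is that of the 7 other livers. A window value is the median shift of its probes after subtraction of the array's median over all autosomes. The 75th percentile of intensity was 512 to 884 for DEN tumours and 951.5 to 4258 for KO tumours. It was 499.6 to 685 for KO livers and 476 to 729 for WT livers. Probes flagged as above background made up 65.01 to 82.4% in DEN tumours and 54.8 to 76.5% in KO tumours. In KO livers they made up 51.1 to 56.5%, and in WT livers 57.8 to 63.4%. KO tumours 4, 5 and 6 shared 1 slide and were the brightest arrays, and each liver group lay on a slide of its own. WT liver 4 stood apart from the other livers in B and plasma cell genes, as given with the immunoglobulin segment. It was also apart in the mean shift of 14 cell cycle markers, 1.68 against -0.46 to -0.09 in the other livers. For 10 T and NK cell markers it read 1.35 against -0.39 to 0.03. The labels were set against marker lists. The 14 hepatocyte markers had a mean shift of -1.79 to -0.51 in DEN tumours and -5.92 to -2.40 in KO tumours, and the 10 biliary markers -0.12 to 1.30 and 2.09 to 4.70. In KO tumour 4 the bile duct keratin Krt19 had a level of -3.98 (log2, after subtraction of its array's 75th percentile), below the lowest liver at -3.89, whereas the other KO tumours read 1.05 to 3.41. Epcam, of the same list, did not share this, with a level of 0.24 in KO tumour 4 against -5.41 to -3.90 in livers. The biliary list mean of KO tumour 4, at 2.09, was the lowest of its group but above all DEN tumours and livers.

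Across the whole chromosome no tumour group was shifted far. The chromosome median was -0.05 to 0.11 in the 7 DEN tumours, with a median of 0.03, and -0.40 to 0.07 in the 6 KO tumours, with a median of -0.09. KO livers gave -0.03 to 0.002 and WT livers -0.05 to 0.08. KO tumour 2 had the lowest chromosome median, -0.40, the lowest of its 19 autosomes, and KO tumour 5 the highest of its group, 0.07. These values include the immunoglobulin heavy chain segment. Without it, a choice made after seeing the data, KO tumours 1 to 6 read -0.24, -0.27, -0.11, -0.31, -0.03 and -0.09. All 6 were then below zero, and KO tumour 4 was the lowest. DEN tumours then ran from -0.11 to 0.03 and livers from -0.03 to 0.03. The windows within the chromosome differed more than its median did. Their standard deviation lay between 0.19 and 0.35 for DEN tumours, between 0.26 and 0.59 for KO tumours and between 0.08 and 0.22 for livers. Over all autosomal windows the same spread was 0.13 to 0.25, 0.25 to 0.41 and 0.06 to 0.21. Without the window from 110 to 120 Mb the spread on chromosome 12 fell to at most 0.30 in DEN tumours and 0.41 in KO tumours.

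A window was counted when a tumour lay outside the range of the 8 livers and at least 0.3 from zero. In the KO tumours this held for 42 of 72 window values, 9 higher and 33 lower. Over all autosomes 11.9% of KO tumour window values counted as higher and 12.9% as lower. In the DEN tumours it held for 20 of 84 values, 9 higher and 11 lower, against 5.71% and 4.69% over all autosomes. Since the rule chose these windows, nothing is read from the difference. With normexp background correction and quantile normalization together the counts were 13 and 2.

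**Figure D1:**
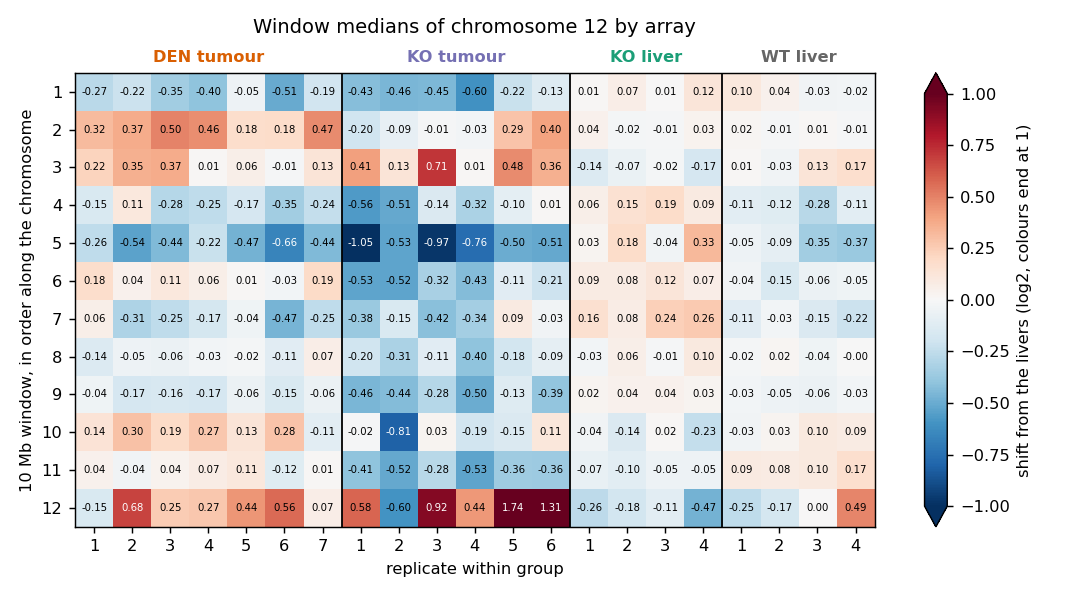
Each cell gives the median shift (log2) of 1 window of 10 Mb, in order along the chromosome from 1 (0 to 10 Mb) to 12 (110 to 120 Mb), on 1 array, with arrays grouped into 7 DEN tumours, 6 KO tumours, 4 KO livers and 4 WT livers. Window 5 is below zero in all 13 tumours, and window 12 runs from -0.60 in KO tumour 2 to 1.74 in KO tumour 5.

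The window from 0 to 10 Mb was low in every tumour. Its 68 probes had a median of -0.51 to -0.05 in DEN tumours, with a group median of -0.27, and of -0.60 to -0.13 in KO tumours, with a group median of -0.44. The livers lay between -0.03 and 0.12, below which all 13 tumours fell. KO tumour 4 was the lowest tumour, and only 26.5% of its probes there lay above zero. The leading genes in that tumour were Ldah at -2.17, Ttc32 at -1.63 and Ubxn2a at -1.59. Ldah, a hydrolase of lipid droplets, shifted by -1.79, -1.31 and -0.51 (lowest, median and highest) in DEN tumours and by -2.17, -1.62 and -1.38 in KO tumours. Its livers ran from -0.37 to 0.38, so every tumour was below every liver on this probe. On the second Ldah probe DEN tumour 5 read -0.07, inside the liver range of -0.34 to 0.57. Ttc32, a tetratricopeptide repeat protein, was low mainly in KO tumours, at -2.27, -1.80 and -1.14, against -1.05, -0.36 and -0.10 in DEN tumours and -0.28 to 0.28 in livers. Ubxn2a, a cofactor of the p97 ATPase, separated the groups less, since KO tumour 1 read 0.12 and KO tumour 4 read -1.59.

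Apob lies in the same window and was low in KO tumours. On the probe that stands for the gene (chr12:8023194-8023253) its shift was -4.56, -2.90, -2.95, -1.19, -1.92 and -1.46 in KO tumours 1 to 6. In DEN tumours 1 to 7 it was 0.11, -1.91, -0.26, -1.20, 0.07, -1.90 and -0.05, and the livers lay between -0.63 and 0.39. All 6 KO tumours and 3 of 7 DEN tumours were below every liver. The second Apob probe gave a median of -3.01 in KO tumours and -0.66 in DEN tumours. Sdc1, a heparan sulfate proteoglycan of epithelial and plasma cells, shifted both ways, with -0.93, 0.04 and 1.97 in DEN tumours and -0.96, -0.53 and 0.11 in KO tumours. The livers lay between -0.21 and 0.16, with 2 DEN tumours above and 2 below all of them and 4 KO tumours below.

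The window from 10 to 20 Mb was high in DEN tumours. The 59 probes had medians of 0.32, 0.37, 0.50, 0.46, 0.18, 0.18 and 0.47 in DEN tumours 1 to 7, and the livers stayed between -0.02 and 0.04. Every DEN tumour was above every liver, and in DEN tumour 7 the window ranked 2 from the highest of 250. Among KO tumours, tumours 5 and 6, from 1 mouse, read 0.29 and 0.40, whereas tumours 1 to 4 read -0.20 to -0.01. The leading genes of DEN tumour 3 were Tubb2a-ps2 at 3.53, Cyria at 3.36 and Gm9222 at 1.29. Tubb2a-ps2, a beta-tubulin pseudogene, shifted by 1.64, 3.01 and 3.56 in DEN tumours and by 0.11, 1.04 and 1.90 in KO tumours, with livers from -0.71 to 0.59. A tubulin gene elsewhere in the genome may share signal with such a pseudogene probe. Cyria, a Rac1-binding regulator of actin, shifted by 1.23, 2.46 and 3.52 in DEN tumours and by 0.72, 1.24 and 2.64 in KO tumours. On this probe all 13 tumours were above the livers, which reached 0.64. Its other probes gave DEN tumour medians of 1.496 and 2.88 and did not separate all tumours from the livers. On the first, livers reached 0.48, and DEN tumours 2 and 6 and KO tumours 1 to 3 lay below that. On the second, livers reached 1.14, and DEN tumour 6 and KO tumour 4 lay below that.

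Mycn, a MYC-family transcription factor, lies in this window as well. It shifted by 1.12, 2.09 and 4.405 in DEN tumours and by 1.10, 2.66 and 4.22 in KO tumours. The livers spanned -1.89 to 2.27, since Mycn was not well above background on any KO liver array but was so on 3 of 4 WT liver arrays. Against KO livers the KO tumours were at least 4.04-fold higher. "At least" sets the mean of the brighter group against the higher of the dim probe and the lowest signal above background on each array. Of the tumours, 7 of 7 DEN and 5 of 6 KO were well above background.

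The window from 20 to 30 Mb was high in KO tumours and in part of the DEN tumours. Its 80 probes had medians of 0.41, 0.13, 0.71, 0.01, 0.48 and 0.36 in KO tumours 1 to 6. DEN tumours 1 to 3 read 0.22, 0.35 and 0.37, and DEN tumours 4 to 7 read -0.01 to 0.13, inside the liver range of -0.17 to 0.17. The leading gene of KO tumour 3 was Gm4425 at 3.51, whose probe is the CA repeat printed above. The Slc8a3 probe, which lies in the window from 80 to 90 Mb and has the repeat on the same strand, reached 3.59 in KO tumours, and both reached at least 2.36 in a WT liver. The probes with the repeat on the other strand, in Plekhg3, Wdr89 and Cep170b, had KO tumour medians of -0.90, -1.16 and -0.90. Asap2, a regulator of Arf GTPases, was second at 0.93, and it differed among DEN tumours from -1.71 to 1.37. Gm9292 followed at 0.86, with 0.19, 0.85 and 1.49 in KO tumours. Without all probes that share a run, the KO tumour median of this window went from 0.38 to 0.17. Rrm2, the small subunit of ribonucleotide reductase, shifted by 0.80, 1.10 and 1.48 in KO tumours and -1.32, 0.28 and 1.39 in DEN tumours, with livers from -0.49 to 0.88.

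The window from 30 to 40 Mb fell on either side of zero. Its 74 probes gave -0.35, -0.24 and 0.11 in DEN tumours and -0.56, -0.23 and 0.01 in KO tumours, and WT liver 3 reached -0.28. It holds Agr2, a secretory protein of gland and duct epithelium. Agr2 was well above background on 3 of 6 KO tumour arrays, 1 of 7 DEN tumour arrays and no liver array. Its shift was 2.63, -1.62, 7.89, 0.30, 1.44 and 2.57 in KO tumours 1 to 6, so that KO tumour 3 stood far above the others.

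The window from 40 to 50 Mb was the lowest of the chromosome. Its 22 probes had medians of -0.26, -0.54, -0.44, -0.22, -0.47, -0.66 and -0.44 in DEN tumours 1 to 7. KO tumours 1 to 6 read -1.05, -0.53, -0.97, -0.76, -0.50 and -0.51. It was the last of the 250 autosomal windows in DEN tumours 2, 5 and 6 and in KO tumours 3 and 4. The livers themselves were spread from -0.37 to 0.33, with WT livers lower than KO livers, and it was also the last window in WT liver 3. The leading genes of KO tumour 1 were Immp2l at -4.14, Lrrn3 at -2.54 and Nova1 at -2.35. Immp2l, a peptidase of the mitochondrial inner membrane, was below all livers in all 13 tumours, at -1.63, -1.28 and -0.85 in DEN tumours and -4.14, -2.75 and -1.98 in KO tumours, and its second probe gave medians of -1.54 and -2.60. Lrrn3, a membrane protein with leucine-rich repeats, was below zero in every DEN tumour, from -3.70 to -0.92. Among KO tumours it was low in tumours 1 to 4, from -3.25 to -1.47, and raised in tumours 5 and 6, at 0.56 and 1.16. Nova1, a splicing factor best known in neurons, split the KO tumours by slide, with -2.35 to -2.08 in tumours 1 to 3 and 0.98 to 1.88 in tumours 4 to 6, and 2 KO livers had no value on this probe. The part of the slide in this split was not tested.

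From 50 to 90 Mb the KO tumours were mildly low. In the window from 50 to 60 Mb the 88 probes gave -0.53, -0.38 and -0.11 in KO tumours and -0.03, 0.06 and 0.19 in DEN tumours, and the 5 KO tumours other than tumour 5 were below the lowest liver at -0.15. From 60 to 70 Mb (20 probes) the KO tumours ran from -0.42 to 0.09 and the DEN tumours from -0.47 to 0.06. From 70 to 80 Mb (127 probes) they ran from -0.40 to -0.09 and from -0.14 to 0.07. From 80 to 90 Mb (178 probes) the KO tumours read -0.46, -0.44, -0.28, -0.50, -0.13 and -0.39 against -0.17 to -0.04 in DEN tumours and -0.06 to 0.04 in livers. All 6 KO tumours were below every liver there.

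Among the genes of this stretch, Nfkbia lay on opposite sides of zero in the tumour groups. Nfkbia encodes an inhibitor of NF-kappaB. Its shift was -1.74, -1.12 and -0.32 in DEN tumours and 0.12, 0.71 and 0.99 in KO tumours. The tumour-free livers were split in the same way, with KO livers at 0.01 to 0.86 and WT livers at -0.77 to -0.09. No test of this difference is given, since tumour values chose the members. Slc25a21, a mitochondrial carrier of oxodicarboxylates, was low in every tumour, with -7.57, -4.30 and -1.64 in DEN tumours and -5.26, -3.71 and -2.73 in KO tumours. Gpx2, a glutathione peroxidase of epithelia, was high in every KO tumour, at 7.02, 6.40, 8.24, 6.87, 4.69 and 6.41. In DEN tumours 1 to 7 it read 2.77, 3.26, 2.94, 0.61, 0.99, 1.79 and 7.80, so that DEN tumour 7 reached the KO tumours. Its livers lay between -0.55 and 0.45. Ltbp2, a protein of elastic matrix, read 8.07, 7.70, 8.12, 6.39, 7.84 and 6.88 in KO tumours, -2.77 to 3.58 in DEN tumours and -0.87 to 2.67 in livers. Hif1a, the oxygen-regulated transcription factor, stayed within -0.45 to 0.47 in all 13 tumours on the probe that stands for it. Its second probe, above background on no liver, ran from -1.06 to 2.88. Tmem30b, a subunit of lipid flippases, was low in KO tumours on the probe that stands for it (-4.92, -1.54 and -0.83, against -0.45, -0.12 and 0.43 in DEN tumours). Its second probe was also low in KO tumours, with a median of -2.38, but had a median of 1.245 in DEN tumours, 6 of 7 of them above all livers. The probe pair of Slc10a1, the bile acid uptake transporter of hepatocytes, disagreed. The probe with the repeat-like stretch, which has the higher signal and stood for the gene, gave medians of -0.43 in DEN and -0.16 in KO tumours. The probe without a shared run gave -4.93, -2.46 and -1.23 in DEN tumours and -8.90, -6.36 and -3.92 in KO tumours, all below the livers, which reached no lower than -0.33.

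Among the AP-1 genes of the window from 80 to 90 Mb, Jdp2 was above all livers in 6 of 6 KO tumours, Batf in 5 and Fos in none. Jdp2, a repressor of AP-1, shifted by 3.08, 3.76, 2.86, 1.59, 2.92 and 3.37 in KO tumours 1 to 6 and by -0.51, 0.67 and 2.81 in DEN tumours. Batf, a lymphocyte AP-1 factor, shifted by 1.35, 2.20 and 3.94 in KO tumours and -0.16, 0.42 and 1.29 in DEN tumours. KO tumours 5 and 6, at 3.94 and 3.81, were highest. In WT liver 4 Batf reached 1.75. Fos, the immediate early gene, differed more among livers than the others. The KO livers read 3.92, 2.18, -1.94 and 2.31 and the WT livers -2.65, 0.12, -2.41 and -1.46, against 2.43 to 3.49 in KO tumours and 0.88 to 3.05 in DEN tumours.

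The windows from 90 to 110 Mb separated single tumours and then the groups. From 90 to 100 Mb only 26 probes lie, 10 of them above background on all 21 arrays. KO tumour 2 read -0.81 there, whereas the other KO tumours read -0.19 to 0.11. Its leading genes were Ston2, an endocytic adaptor, at -2.22 and Sel1l, of the degradation of misfolded proteins, at -0.59. Next came Gtf2a1, a subunit of a general transcription factor, at 0.02. With 1 probe per gene the KO tumour median of this window went from -0.08 to -0.57, so its value rests on few probes. From 100 to 110 Mb (142 probes) KO tumours 1 to 6 read -0.41, -0.52, -0.28, -0.53, -0.36 and -0.36, all below the livers (-0.10 to 0.17), and the DEN tumours read -0.12 to 0.11.

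**Figure D2:**
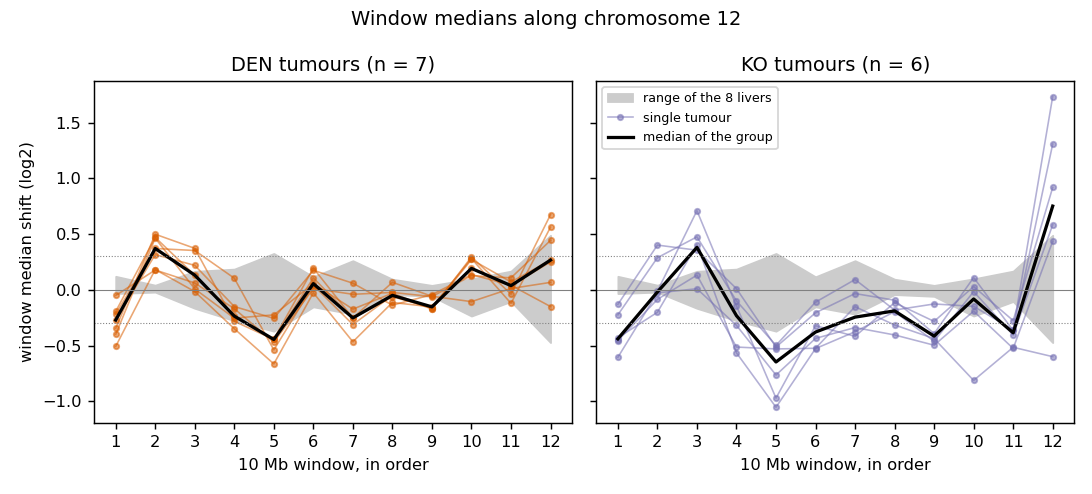
Window medians (log2) are drawn for each of the 7 DEN tumours (left) and 6 KO tumours (right), with the group median in black and the range of the 8 livers in grey; dotted lines mark 0.3 and -0.3. DEN tumours stand above the livers in window 2 (10 to 20 Mb) and KO tumours below them in windows 9 and 11 (80 to 90 and 100 to 110 Mb).

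The serpin cluster lies in the window from 100 to 110 Mb. Serpins are protease inhibitors and hormone carriers that hepatocytes secrete. Of the 25 genes listed, 22 were measured. In KO tumours 10 of the 22 were below all 8 livers in every tumour and 2 were above them in every tumour. Over all genes tested the shares were 11.2% below and 14.8% above. In DEN tumours 2 members were above all livers in every tumour and none below, against 3.69% and 5.64% of all genes. The median member shift was -1.03 in KO tumours and 0.10 in DEN tumours, where all genes had -0.04 and 0.05. Serpina6, the carrier of glucocorticoids, shifted by -5.95, -8.23, -3.84, -3.50, -3.40 and -4.06 in KO tumours and by -6.54, -2.28 and 0.11 in DEN tumours, with livers from -1.01 to 0.94. DEN tumours 5, 6 and 7 read 0.11, -1.01 and -0.41 and lay within the liver range. Serpina3m shifted by -6.81, -3.28 and -2.54 in KO tumours and by -2.16, 0.19 and 1.06 in DEN tumours. Serpina3n, an acute-phase serpin, was above zero in every DEN tumour, at 0.54, 1.43 and 2.83, and spread from -1.55 to 0.55 in KO tumours. Its livers ran from -0.54 to 0.87, and DEN tumours 2, 4 and 7 lay within that range. Serpina1a, an alpha-1-antitrypsin gene, gave different sizes by probe. Its probe in the run shared with Serpina1c and Serpina1e had a median of -0.95 in KO tumours, and its other probe -2.34. With normexp and quantile normalization the first of these turned to 0.06.

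Serpina12, also called vaspin, was 1 of the 2 serpins above all livers in every DEN tumour. Its shift was 5.04, 3.94, 5.41, 4.30, 3.82, 5.37 and 5.23 in DEN tumours 1 to 7 and -1.79, -0.21, -2.94, 1.98, -0.04 and 2.09 in KO tumours 1 to 6. The WT livers read 2.84, 2.42, 2.57 and 1.86 and the KO livers -2.54, -2.16, -2.02 and -2.88, so all DEN tumours were above all livers. Ifi27l2b, of an interferon-inducible family in the same window, behaved alike in DEN tumours, at 2.94, 4.47 and 5.08, against -0.57, 1.74 and 3.47 in KO tumours and -0.62 to 0.89 in livers. Its second probe had a DEN tumour median of 3.54.

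**Figure D3:**
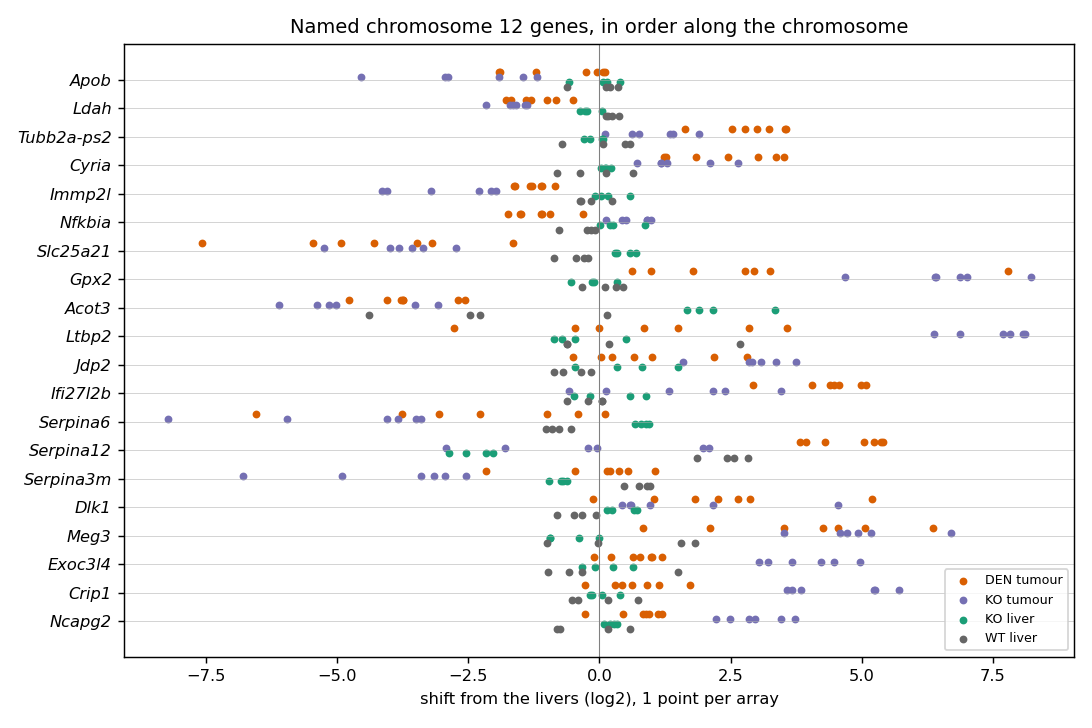
Each point is the shift (log2) of 1 gene on 1 array, for 20 named genes in order along the chromosome and 4 groups by colour. Serpina12 and Ifi27l2b are highest in the DEN tumours, Ltbp2 and Gpx2 in the KO tumours, and Meg3 is raised in both tumour groups.

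The window from 110 to 120 Mb held the highest window median of a single tumour on the chromosome, whereas the DEN tumours had a higher group median from 10 to 20 Mb (0.37 against 0.27). Its 250 probes had medians of -0.15, 0.68, 0.25, 0.27, 0.44, 0.56 and 0.07 in DEN tumours 1 to 7. KO tumours 1 to 6 read 0.58, -0.60, 0.92, 0.44, 1.74 and 1.31. The livers ran from -0.47 to 0.49, with WT liver 4 at 0.49 and the other 7 between -0.47 and 0.002. KO tumours 5 and 6, from 1 mouse, were the highest and KO tumour 2 the lowest. The leading genes of KO tumour 5 were Gpr132 at 4.32, Exoc3l4 at 3.66 and Crip1 at 3.58. Gpr132, a lipid-sensing receptor of immune cells, was high in every KO tumour, at 3.16, 3.53 and 4.32, against -0.24, 0.37 and 1.51 in DEN tumours, and it reached 1.97 in WT liver 4. Exoc3l4, related to an exocyst subunit, shifted by 3.04, 3.94 and 4.97 in KO tumours, and Crip1, a LIM-domain protein, by 3.58, 4.55 and 5.71. For each of these genes all KO tumours were above all livers. Tnfaip2, a TNF-induced gene, shifted by 0.48, 2.47 and 3.67 in KO tumours, where tumour 4 was lowest. Ncapg2, a condensin subunit, shifted by 2.22, 2.91 and 3.74 in KO tumours and by -0.28, 0.88 and 1.20 in DEN tumours.

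The highest values of this window lie in the immunoglobulin heavy chain segment. The segment runs from base 114496985 to base 117238485, holds 113 of the 250 probes, and 34 of these are described as immunoglobulin heavy chain. Its median shift was -0.61, 1.48, 0.63, 0.53, 1.21, 1.24 and -0.19 in DEN tumours 1 to 7 and 1.63, -1.92, 2.34, 1.92, 5.42 and 4.23 in KO tumours 1 to 6. The KO livers read -0.68, -0.45, -0.25 and -0.999 and the WT livers -0.66, -0.43, -0.04 and 3.63. WT liver 4 thus exceeded every DEN tumour and 4 of 6 KO tumours. Without the segment the remaining 137 probes gave 0.03, 0.14 and 0.23 in DEN tumours and -0.06, 0.30 and 0.34 in KO tumours, and KO tumour 2 read 0.15 in place of -0.60. With WT liver 4 left out of the reference the segment gave -0.24, 1.13 and 1.96 in DEN tumours, -1.59, 2.57 and 5.81 in KO tumours and -0.50 to 0.29 in the 7 livers. Of the 113 probes, 105 were well above background in KO tumour 3, 93 in WT liver 4 and 22 to 39 in the other livers.

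Taken as a list, markers of B and plasma cells moved with the segment. All 10 markers of the list were measured, 9 of them by probes on other chromosomes and Cd79a by a member probe. Their mean shift was -1.02, 0.04 and 1.67 in DEN tumours and -0.89, 2.17 and 4.63 in KO tumours, and -1.0 to 0.19 in the livers other than WT liver 4, which read 3.74. Over the 13 tumours the list and the segment had a Pearson r of 0.95, a description over tumours that include 3 pairs from 1 mouse. In an alternative chosen after seeing the data, the list without Cd79a gave 0.948. The T and NK cell list gave an r of 0.56. Jchain, which joins secreted antibodies, had levels of 4.12, -1.04, 5.47, 4.67, 5.86 and 5.53 in KO tumours 1 to 6, 4.30 in WT liver 4 and -1.51 to -0.05 in the other livers. In these bulk samples more cells of a type and more RNA per cell cannot be told apart. Igh-VJ558, named as a heavy chain complex in the files, shifted by 4.27, 2.97, 6.48, 5.23, 7.08 and 6.31 in KO tumours. The livers ran from -1.12 to 2.38, with WT liver 4 the highest. Its second probe read -2.43 in KO tumour 2 and 1.63 to 4.45 in the other KO tumours. Igkc, the kappa light chain constant gene and a member of the list, gave low levels of -8.76 to -3.95 on all arrays. It did not follow the list in KO tumours, where its shift was -2.66 to -0.22 and no array was well above background.

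**Figure D4:**
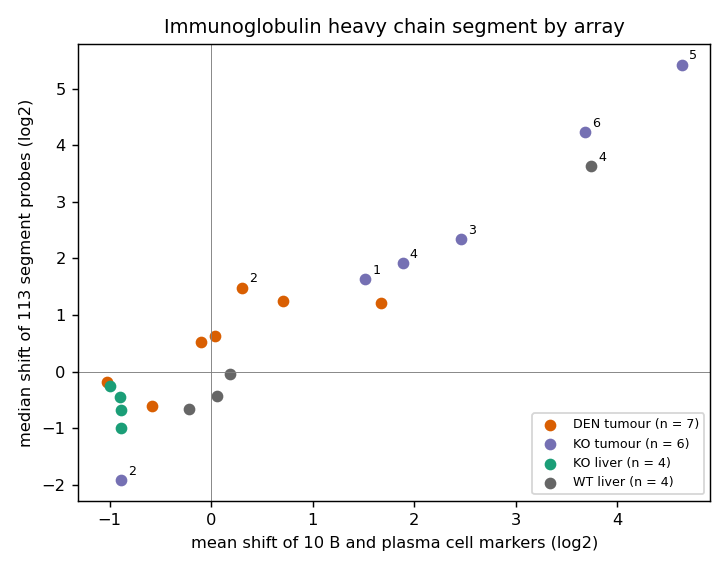
Points are the 21 arrays, with the mean shift (log2) of 10 B and plasma cell markers on the x axis and the median shift (log2) of 113 probes of the immunoglobulin heavy chain segment on the y axis; numbers name the replicates far from zero. WT liver 4 lies at 3.74 and 3.63, among the KO tumours 5 and 6 rather than the other livers.

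The Dlk1-Dio3 domain lies proximal to that segment in the same window. This imprinted domain is active in the fetus, and its maternally read RNAs include Meg3 and the microRNA host Mirg. Of 9 genes listed 7 were measured, with a median member shift of 1.81 in DEN and 1.55 in KO tumours. Meg3 on the probe printed above shifted by 4.56, 3.51, 0.84, 2.11, 4.27, 5.07 and 6.36 in DEN tumours 1 to 7 and by 4.72, 3.52, 6.70, 5.18, 4.92 and 4.59 in KO tumours 1 to 6. The livers ran from -0.998 to 1.82, and 12 of the 13 tumours were above all of them, DEN tumour 3 being the exception. The other Meg3 probes gave medians of 2.37 and 0.69 in DEN tumours and 3.22 and 1.94 in KO tumours. Mirg followed Meg3, with 1.04, 2.15 and 4.03 in DEN tumours and 1.27, 1.74 and 3.38 in KO tumours. On this probe KO livers ran from -1.115 to -0.40 and WT livers from 0.47 to 1.502. DEN tumours 3 and 4 and KO tumours 2 and 6 were not above all livers. The dimmer Mirg probe was not well above background on any liver, and on it KO tumours were at least 3.78-fold above KO livers and DEN tumours at least 2.20-fold above WT livers. Dlk1, the paternally read surface protein of fetal liver cells, was high in single tumours, at 5.19 in DEN tumour 7 and 4.55 in KO tumour 3. The other DEN tumours read -0.12 to 2.87 and the other KO tumours 0.42 to 2.17, with livers from -0.81 to 0.72. Dio3, the deiodinase that inactivates thyroid hormone, was raised in KO tumours, at 2.002, 2.61 and 3.75, against -0.11, 0.50 and 0.90 in DEN tumours. The KO tumours were at least 2.92-fold above KO livers, where it was not well above background. Domain members thus did not move as 1 block.

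The genes of hepatocyte metabolism were the list with the most low members. Of 33 genes, 32 were measured, and in KO tumours 19 were below all livers in every tumour and 1 above, beside 11.2% of all genes below and 14.8% above. In DEN tumours 8 were below and 2 above, beside 5.64% and 3.69%. The median member shift was -1.88 in KO and -0.67 in DEN tumours. The acyl-CoA thioesterases of the window from 80 to 90 Mb, which release free fatty acids from acyl-CoA, were below zero in every tumour on the probes that stand for Acot1, Acot3, Acot4 and Acot5. Zero is the mean of all livers, and on these probes every KO liver was above it. WT livers ran from -1.55 to 0.37 for Acot1, -4.395 to 0.15 for Acot3, -1.58 to -0.60 for Acot4 and -1.86 to 0.14 for Acot5. Acot1 shifted by -6.62, -3.92 and -1.49 in DEN tumours and by -3.49, -2.73 and -2.26 in KO tumours. Acot4 shifted by -2.27, -1.62 and -0.999 and by -4.92, -3.36 and -2.18. DEN tumour 5 for Acot1 and DEN tumours 1 and 7 for Acot4 lay within the WT liver range. For Acot3 all tumours were below zero, but only 1 of 7 DEN tumours lay below all livers, and the second Acot5 probe had a DEN tumour median of 0.92. The hepatocyte marker list had medians of -0.96 in DEN and -3.51 in KO tumours, and its part in these values was not tested. Of the cell cycle and genome maintenance genes 28 of 29 were measured, with a median member shift of 0.24 in KO and -0.06 in DEN tumours. In KO tumours 4 were above all livers in every tumour and 1 below, beside 14.8% and 11.2% of all genes, which also stand beside the next counts. The 18 genes of AP-1, NF-kappaB, interferon and stress had medians of 0.84 and 0.51, with 5 above and 1 below in KO tumours. Of 33 epithelial, matrix and developmental genes 29 were measured, with medians of 1.18 and 0.11, with 6 above and 2 below in KO tumours. Macc1, a regulator of MET signalling near the end of the chromosome, was not well above background on any KO liver, and it was at least 3.19-fold higher in KO tumours. It shifted by 3.97, 2.78, 4.64, -0.65, 2.93 and 2.21 in KO tumours 1 to 6, so that KO tumour 4 again differed from its group.

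The likeness of single genes to the window from 110 to 120 Mb was ranked over 502 named genes in other windows. The highest Pearson r over the 13 tumours were 0.90 for Cd79a, 0.83 for Rock2, 0.82 for Lrrn3, 0.82 for Lin52 and 0.80 for Rhob. Cd79a, a part of the B cell receptor, is a probe that the files place at 50 to 60 Mb although its gene lies elsewhere in the RefSeq table. It shifted by -0.97, 1.18 and 4.62 in KO tumours and reached 2.27 in WT liver 4. For Lin52, of the DREAM complex, the other 2 probes were at most 1.06 in any tumour, against 3.05 on the probe ranked. The second Rock2 probe was highest in KO tumour 2, at 1.53, where the window was lowest. On the second Rhob probe KO tumours 5 and 6, highest in the window, read 0.19 and -0.11, against 2.265 and 2.08 on the probe ranked.

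Tumours of 1 mouse were alike in their window profiles, but so were others. Over the 12 windows, DEN tumours 4 and 5 had a Pearson r of 0.72, DEN tumours 6 and 7 an r of 0.68, and KO tumours 5 and 6, which shared a slide, an r of 0.96. Pairs from different mice ran from 0.42 to 0.91 in DEN tumours and from 0.11 to 0.96 in KO tumours, where the low values involve KO tumour 2.

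The fits of the tumour comparisons used the same contrasts as the choice of windows, and their counts are given for completeness. By limma with Benjamini-Hochberg adjustment over 23555 genes, 460 of 907 chromosome 12 genes passed 0.05 between KO tumours and KO livers. Of these 169 were higher and 291 lower, beside 21.5% and 29.5% of all genes. Between DEN tumours and WT livers 187 passed, 87 higher and 100 lower, beside 10.6% and 10.9%. With slide as a random block 17 were left, beside 422 of the 23555 genes. Between KO and DEN tumours 502 passed, 123 higher and 379 lower, beside 19.8% and 37.5%. The comparisons share groups and are not independent of each other.

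KO livers were compared with WT livers for the difference between genotypes without a tumour. This comparison was not used to choose windows or members, apart from the filter on background and the shared liver reference. In KO livers Rad51b and 3 acyl-CoA thioesterases were higher, and Serpina4-ps1, Serpina12 and Serpina9 lower. The rule that named these genes required no overlap between the 4 livers of either group. By limma's moderated test 76 of the 907 genes passed an adjusted p of 0.05, 20 higher (2.21%) and 56 lower (6.17%) in KO livers. Over all genes 1.83% were higher and 6.63% lower, and the chromosome 12 shares were near these. The KO liver arrays also had fewer probes above background, and 30 of the 56 lower genes were not well above background on any KO liver. Among probes above background on all 21 arrays 23 of 524 chromosome 12 genes passed, 13 higher and 10 lower. Over all chromosomes 308 were higher and 391 lower among 14468 such genes. Genotype, slide and scan day cannot be told apart, because each liver group lay on 1 slide. With slide as a random block no chromosome 12 gene passed, and 11 genes did over all chromosomes, whereas 207 chromosome 12 genes had an unadjusted p under 0.05 in the fit without it. The count was 25 without WT liver 3, 37 without WT liver 4, 39 without KO liver 1, 34 without KO liver 2, 43 without KO liver 3 and 42 without KO liver 4. Over all chromosomes 655 to 1093 of 23555 genes passed in the same fits.

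Rad51b, a gene of DNA break repair, had the largest rise of the 10 named genes. Its levels were 1.52, 0.65, 0.46 and 1.13 in KO livers and -3.06, -3.57, -3.08 and -2.75 in WT livers. The means were 0.94 ± 0.48 (SD, n = 4) and -3.12 ± 0.34 (n = 4), a difference of 4.06 ± 0.46 (SE, limma adjusted p 8.6e-05). With the slide block the adjusted p was 0.23. KO tumours had shifts of 1.94 to 3.85, overlapping the KO livers at 1.79 to 3.04, and the DEN tumours lay at -1.34 to 2.97. Acot3 levels were 3.40, 3.66, 4.69 and 3.16 in KO livers and -0.37, -2.06, -0.11 and 1.90 in WT livers, a difference of 3.89 ± 0.76 (limma adjusted p 0.0058). Its second probe differed by 3.62. Acot4 was higher by 1.79 ± 0.41 (limma adjusted p 0.014) and Acot5 by 1.45 ± 0.35 (limma adjusted p 0.019), while the second Acot5 probe differed the other way, by -0.88. Without WT liver 3 the limma adjusted p was 0.059 for Acot4 and 0.0603 for Acot5, and without KO liver 3 it was 0.061 for Acot5. Acot1 differed by 0.94 in the same direction. Unc79, of a sodium leak channel complex, was higher by 1.49 ± 0.33 (limma adjusted p 0.012).

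Serpina4-ps1 had the largest fall of the 10. Its levels were -6.22, -5.64, -6.57 and -5.17 in KO livers, none well above background, and 4.26, 3.45, 4.53 and 4.595 in WT livers. It was at least 480.5-fold lower in KO livers (limma adjusted p 0.00022), and its second probe at least 288-fold. In tumours it was well above background on 6 of 7 DEN and 3 of 6 KO arrays, and the DEN tumours spread from -5.02 to 4.79. Serpina12 was not well above background on any KO liver and was at least 4.16-fold lower there (limma adjusted p 0.0023). Serpina9 was at least 7.91-fold lower (limma adjusted p 7.1e-05). Map3k9, a kinase of the JNK pathway, was lower in KO livers, with a difference of -3.50 (limma adjusted p 0.0025), and Gm3086 with -3.25 (limma adjusted p 0.0016), with 1 and 2 of 4 KO livers above background. With the slide block the adjusted p of these 10 genes ran from 0.13 to 0.75. By list, 4 of the 22 serpins were lower and none higher, 3 of the 32 hepatocyte metabolism genes were higher and 1 lower, and 2 of the 28 cell cycle genes were higher and 1 lower, beside 1.83% of all genes higher and 6.63% lower. The window from 100 to 110 Mb held 13 lower genes among 117 tested, and the window from 80 to 90 Mb 8 higher and 8 lower among 139.

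**Figure D5:**
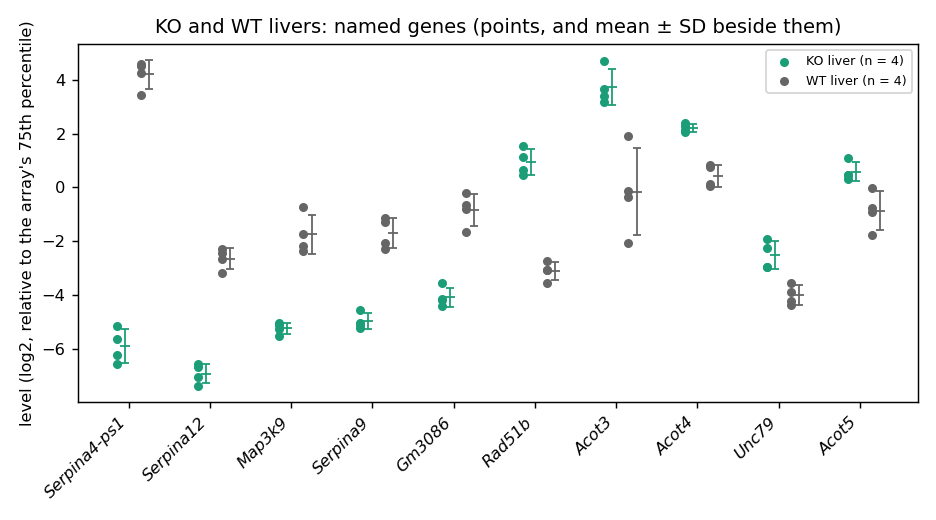
Levels (log2, 75th percentile subtracted) are shown for the 10 named genes in 4 KO livers and 4 WT livers, with points for arrays and the mean with its SD beside them. The 10 genes were chosen to have no overlap between the groups, and the Serpina4-ps1 levels differ most.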

How the data were processed

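Single-colour Agilent arrays (Cy3) of 21 samples were used. Per the file headers, the authors scanned them with Feature Extraction 10.7.3.1, whose output holds a background-corrected intensity and a background flag for each spot. The authors' deposited table of the whole series is in log2 units, and each column correlated with its own array at 0.9997 or more. Outlier spots (122 to 472 per array) were left out, log2 values of repeated spots averaged, and each array's 75th percentile over 39429 probes subtracted. This left 969 missing values, 26 of them in members, which dropped out of medians and fits.

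Probe positions are those of the files (mm9). Of the members, 819 took a name from a RefSeq table (GRCm38.p6, names only) and 322 kept the file's name. The 44 probes above background on exactly 4 arrays had a median level of -6.77, and the 46 on exactly 3, which were excluded, -6.85. In all 328 chromosome 12 probes were excluded. Of the members, 110 were above background on no liver and 640 on all 21 arrays. Exon and untranslated parts were not used here. One limma model (R 4.3.3, limma 3.58.1, prior df 2.61) held 4 group means over 18 mice (tumours of 1 mouse averaged) and 23555 genes, with the probe of highest mean signal per gene and a Benjamini-Hochberg adjusted p threshold of 0.05. Scripts ran in Python 3.11.15 and were tested on simulated data.

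Named genes were, first, the 3 leading genes, above background on all arrays, of the 3 windows with the highest and the 3 with the lowest single-tumour medians. Second came up to 5 higher and 5 lower genes between livers with no overlap, and then up to 4 members per list with the widest range over tumours plus 12 set genes. Last came the 5 genes most like the window of the furthest tumour. One gene that met this rule is not reported here. The members and lists were chosen with earlier results of these data known. Alternatives covered normalization, filters, window size and position, the reference livers, slide and scan day, and single samples.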

Additional observations from a re-analysis of the deposited data

Results flagged for a closer look

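Single arrays that stood apart from their group were sought by Dixon's ratio in 302 sets of 4 to 7 arrays, and 9 were found. Chance alone marks about 1 set in 20, which over 302 sets is more than the 9 found. Window values and the segment value are shifts, and gene values are levels.

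In the window from 30 to 40 Mb WT liver 3 read -0.276, below the next WT liver at -0.124. In the window from 90 to 100 Mb, which holds 26 probes, DEN tumour 7 read -0.105 with its nearest neighbour at 0.128, and KO tumour 2 read -0.812 with its nearest neighbour at -0.191. In the immunoglobulin segment WT liver 4 read 3.63 and the next WT liver -0.0413.

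Among genes, Apob was lowest in WT liver 1, at 5.55 against 6.25 in the next. Ldah was lowest in KO tumour 4, at -0.0361 against 0.526, and Ttc32 in DEN tumour 2, at 0.728 against 1.34. Gpx2 was highest in DEN tumour 7, at 3.94 against -0.529. Unc79 was lowest in KO tumour 2, at -5.93 against -5.16.

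Nfkbia had a median shift of 0.705 in KO tumours, all above zero, and of -1.12 in DEN tumours, all below zero. KO livers were also all above zero, at 0.01 to 0.86, and WT livers all below, at -0.77 to -0.09. No test of this difference is given, since tumour values chose the genes.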

How the results depend on the processing

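Most values held. Of the named gene shifts under each alternative 428 stayed within the replicate spread, 73 moved and 3 changed sign, and of the window medians 407 stayed and 25 moved. The sign changes were Serpina1a in KO tumours (0.064 with normexp and quantile normalization) and, with livers of the same genotype as the only reference, Serpina9 (0.42) and Serpina4-ps1 (0.12) in KO tumours. The cause was not tested.

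KO tumour windows outside the liver range fell from 42 to 13 with normexp and quantile normalization and to 19 at a size limit of 0.5. DEN tumour windows fell from 20 to 2 with normexp and quantile normalization, 8 of 63 with probes above background on all 21 arrays, 2 of 42 with windows of 20 Mb, 10 of 91 with windows starting 5 Mb later, 13 with livers of the same genotype, 11 relative to probes of like liver signal and 5 at the limit of 0.5. Chosen after seeing the data, leaving out the immunoglobulin segment gave 40 and 18, leaving out probes with shared runs 38 and 18, and leaving out the bright slide 24 of 36 KO tumour values.

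With slide as a random block the limma calls among 907 chromosome 12 genes were 0 between livers, 244 between KO tumours and KO livers, 17 between DEN tumours and WT livers and 332 between the tumour groups. Over all 23555 genes they were 11, 6661, 422 and 9160. With probes above background on all arrays, which left 524 chromosome 12 genes, the chromosome 12 calls were 23 between livers and 318 between the tumour groups. Over all 14468 such genes they were 699 and 8237. Single mice were also left out of the fits, with both tumours where a mouse had 2. The chromosome 12 counts then ran from 25 to 78 between livers and 401 to 474 between KO tumours and KO livers. They ran from 127 to 181 between DEN tumours and WT livers and 467 to 528 between the tumour groups. Over all 23555 genes the ranges, in the same order, were 655 to 2081, 10648 to 12742, 3612 to 4924 and 12418 to 14038. Without single arrays the counted windows ran from 33 to 43 of 60 or 72 KO tumour values. For DEN tumours they ran from 15 to 27 of 72 or 84 values. No paired analysis was possible because no label ties a tumour to a liver. The number of arrays limits the precision.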
